A study of Mus musculus with 6 samples.

Results

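Hmgcs1, Mvd, Idi1, Fdps, Fdft1, Sqle, Lss and Cyp51 encode enzymes that carry carbon from acetyl-CoA to cholesterol. They were chosen by name as 8 of the 23473 RefSeq gene rows in the deposited expression table, and all 8 were found there. Although the working name of the group also mentions uptake of low-density lipoprotein (LDL), none of the 8 is an uptake gene. Genes of LDL uptake were therefore described from a separate list of 12, next to lists of 12 other synthesis genes, 7 sterol sensing genes, 8 efflux and storage genes, 8 genes of isoprenoid branches and 10 fatty acid synthesis genes.

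The study asked how Notch activation in endothelial cells alters the RNA of tumor-associated endothelial cells (TECs), and sequenced RNA from 3 NIC eCA and 3 Ctrl samples. The labels describe NIC eCA mice as carrying Cdh5 cre ERT2 together with a Rosa26 flox-stop-flox Notch1 ICD allele, in which tamoxifen lets cells with an active Cdh5 promoter express the Notch1 intracellular domain. Ctrl mice are labelled wild type, both groups are C57BL/6 mice of 8 weeks, and all bore subcutaneous Lewis lung carcinoma (LLC). The methods give tamoxifen at 100 mg/kg daily for 5 days before the tumor cells, and it was not given in the sources used here whether Ctrl mice carried Cre or received the drug. The transgene acts only where Cdh5 drives Cre, while the RNA came from every cell held on the beads. The labels speak of dissection on different days and the methods of day 14. TECs were captured with CD31 beads, with a stated purity above 90%. Values are RPKM, in which the reads of a row are scaled by model length and by the sum of reads over all rows in that library. This sum was between 35303191 and 39823498 reads per library, of which 27793301 to 30769916 lay on RefSeq rows. Some rows overlap, so a read can enter it more than once.

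Cholesterol synthesis starts with the condensation of acetyl-CoA units to HMG-CoA, whose reduction gives mevalonate. Mevalonate is turned into isoprenoid units, these are joined into squalene, and squalene is folded into lanosterol and trimmed to cholesterol. When sterols in the endoplasmic reticulum are scarce, Scap carries the precursor of Srebf2 to the Golgi, where the proteases encoded by Mbtps1 and Mbtps2 free a transcription factor for genes of synthesis and uptake. Endothelial cells meet lipoproteins directly from the blood, and their uptake of labelled acetylated LDL is widely used to identify them.

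The endothelial label was checked first. All 12 endothelial markers were measured, none was at 0, and their summed level was 577, 223 and 291 RPKM in Ctrl replicates 1, 2 and 3 and 489, 637 and 588 RPKM in the NIC eCA replicates. Pecam1, which encodes CD31, was the most abundant of them, at 135, 47.5 and 82.6 RPKM in Ctrl and 125, 154 and 142 RPKM in NIC eCA. Ctrl replicates 2 and 3 thus held the least endothelial marker RNA, while Ctrl replicate 1 lay within the NIC eCA range. Of the 12 endothelial markers 1 was called with limma, higher in NIC eCA, against 5.88% of all tested genes called higher. An unadjusted p below 0.05 was found for 4 of 12, against 35.5% of all tested genes. Of the 12, 0 had a log2 fold change below 0 (median 0.66). Markers of macrophages were far more abundant: the 12 genes summed to 10133, 7199.5 and 7167 RPKM in Ctrl and to 9535, 8626 and 5574 RPKM in NIC eCA. The lysozyme gene Lyz2 alone reached 5555, 3635 and 3759.7 RPKM in Ctrl and 4493, 4562 and 2611 RPKM in NIC eCA, and no macrophage marker was at 0. While the sums and Lyz2 overlapped between the groups, 4 of 12 macrophage markers were called higher in NIC eCA and 0 lower, with log2 fold changes over the list from -0.54 to 1.52 (median -0.14). These libraries therefore held much RNA of macrophage type in both groups, next to a stated purity above 90%.

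Markers of other cell types were less abundant than those of macrophages. The 11 neutrophil genes with a row summed to 128, 212 and 287 RPKM in Ctrl and to 670.1, 929 and 1762 RPKM in NIC eCA, led by S100a9 at 34.4 to 118 RPKM in Ctrl and 194 to 742 RPKM in NIC eCA. All 3 NIC eCA libraries were above all 3 Ctrl libraries in this sum, and in each of them it was larger than the endothelial sum. Of 9 neutrophil genes tested, 8 were called higher in NIC eCA, against 5.88% of all tested genes, with a median log2 fold change of 2.10 over the list. The 8 fibroblast genes, led by Col3a1, summed to 339, 569.5 and 404 RPKM in Ctrl and to 207, 164 and 329.9 RPKM in NIC eCA. The 8 mural cell genes, led by Rgs5, summed to 42.1, 36.4 and 53.9 RPKM in Ctrl and to 90.1, 71.0 and 139.7 RPKM in NIC eCA and were higher in every NIC eCA library, with 2 of 7 tested genes called higher. Fibroblast sums were lower in every NIC eCA library, but Col3a1 made up most of them (270, 454 and 300 RPKM in Ctrl and 149, 103 and 226 RPKM in NIC eCA). Of 7 fibroblast genes tested, 3 were called lower, against 7.68% of all tested genes, and 5 had a log2 fold change below 0. Their mean log2(RPKM + 1) overlapped between the groups (4.16, 4.88 and 4.63 in Ctrl, 3.85, 3.79 and 4.57 in NIC eCA). The 10 lymphocyte genes, led by Nkg7, summed to between 31.0 and 57.0 RPKM, and the 5 epithelial genes, led by Cdh1, to between 6.13 and 12.3 RPKM, with 0 of 9 and 1 of 2 tested genes called, the latter lower in NIC eCA. No marker of the neutrophil, fibroblast, mural or lymphocyte lists was at 0 in any library, and of the epithelial markers only Krt19 was at 0 in any. Proliferation genes, 12 in number and led by Pcna, summed to 193, 276 and 235 RPKM in Ctrl and to 233, 216 and 232 RPKM in NIC eCA. Pcna was higher in every NIC eCA library (log2 fold change 0.45, not called) and went against the rest of its list, as 11 of 12 proliferation genes had a log2 fold change below 0 (median over the 12 -0.27) and 1 was called lower. In such bulk samples, fewer cells of a type and less RNA per cell cannot be told apart, and the part these other cells had in the levels of sterol genes was not tested.

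No synthesis enzyme among the 8 differed between NIC eCA and Ctrl beyond the spread between libraries. With limma on log2(RPKM + 1), 0 of 8 passed an adjusted p of 0.05, and 0 of 8 had an unadjusted p below 0.05, as was also the case with limma voom on recovered reads. Over all 12320 genes tested, 13.6% were called (1671 genes, of which 725 were higher and 946 lower in NIC eCA), and 35.5% had an unadjusted p below 0.05. The groups overlapped for all 8 enzymes, whereas 40.9% of tested genes had groups that did not overlap. The median log2 fold change was -0.06 for the 8 enzymes and -0.05 for all tested genes. The 95% confidence interval of the log2 fold change lay within -1 and 1 for 8 of 8 enzymes and for 80.5% of all tested genes, and these intervals hold per gene, without adjustment for the number of genes. The count over all genes rested on single libraries: it was 1035 without Ctrl replicate 1, 379 without Ctrl replicate 2, 105 without NIC eCA replicate 1 and 27 without NIC eCA replicate 2, while the count for the 8 enzymes was 0 in each of these fits. Trimmed mean scaling turned the split of all calls to 1003 higher and 685 lower.

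**Figure D1:**
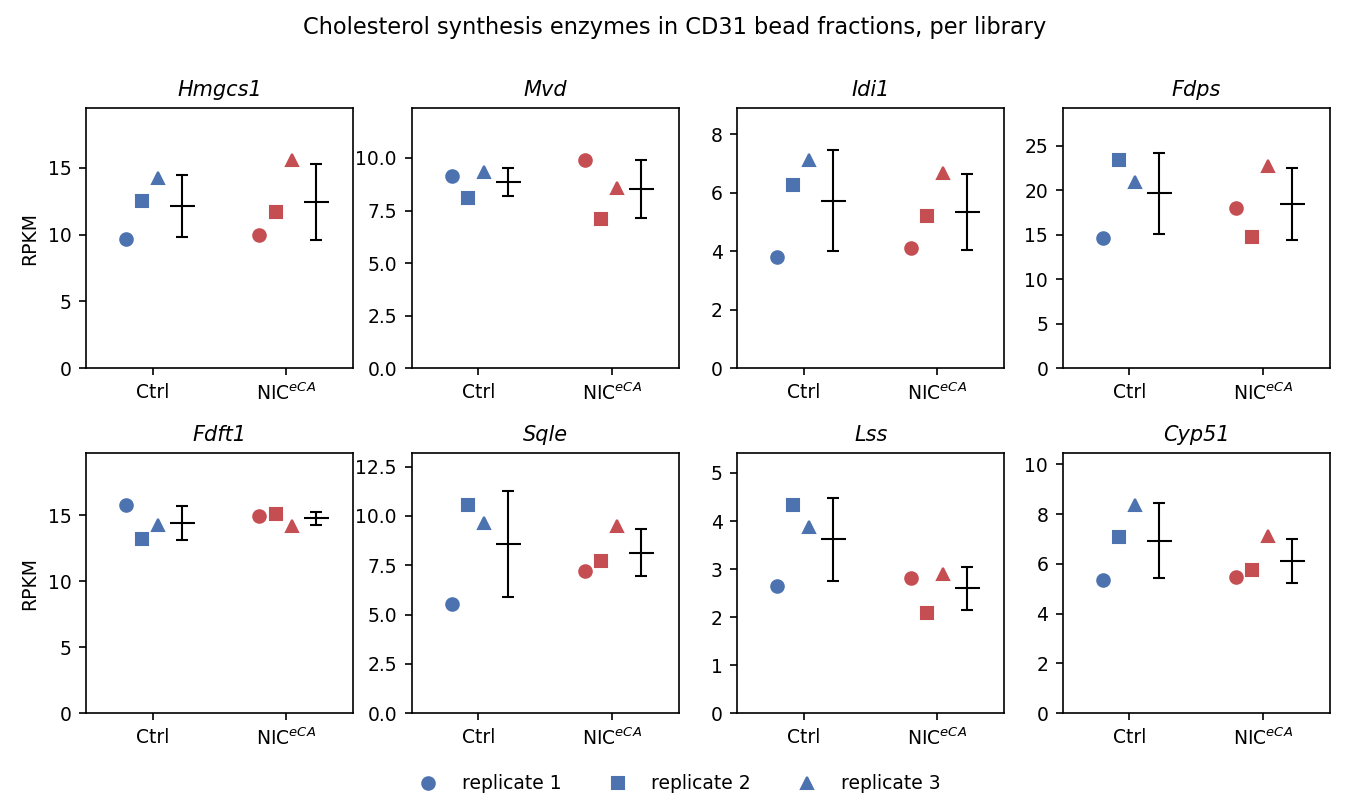
RPKM of the 8 enzymes, with each library as a point (shape gives the replicate number), and the mean with SD of the 3 Ctrl and 3 NIC eCA libraries as bars. The groups overlap in all 8 panels, and Ctrl replicate 1 is the lowest library of all 6 for 5 enzymes.

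The first enzyme of the pathway in this set is Hmgcs1, the cytosolic HMG-CoA synthase (chromosome 13, 119690462 to 119708077, plus strand). Its level was 9.64, 12.5 and 14.3 RPKM in Ctrl and 10.0, 11.7 and 15.6 RPKM in NIC eCA. The highest of the 6 values lay in NIC eCA and the lowest in Ctrl, and the ranges of the groups overlapped. The means were 12.1 ± 2.33 and 12.4 ± 2.85 RPKM (SD, n = 3 each), a log2 fold change of 0.02 (95% interval -0.42 to 0.47, limma adjusted p = 0.94). This sign turned without Ctrl replicate 1 (-0.12) and without NIC eCA replicate 3 (-0.14).

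Mvd, the decarboxylase that turns mevalonate diphosphate into isopentenyl diphosphate (chromosome 8, 122433596 to 122443422, minus strand), was at 9.12, 8.10 and 9.33 RPKM in Ctrl and at 9.89, 7.10 and 8.59 RPKM in NIC eCA. Both the highest and the lowest library were NIC eCA. Its log2 fold change was -0.06 (95% interval -0.38 to 0.27, limma adjusted p = 0.80), with the sign turned by trimmed mean scaling (0.00067) and quantile normalization (0.02). Idi1, which isomerizes isopentenyl diphosphate (chromosome 13, 8885606 to 8892396, plus strand), was at 3.79, 6.26 and 7.11 RPKM in Ctrl and at 4.10, 5.22 and 6.69 RPKM in NIC eCA. The Ctrl values enclosed all 3 NIC eCA values. The log2 fold change of Idi1 was -0.07 (95% interval -0.60 to 0.46, limma adjusted p = 0.85), and 0.06 with quantile normalization. Its paralog Idi2 had only 1 to 8 reads per library and was not tested.

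Fdps makes farnesyl diphosphate, from which sterols and the lipid anchors of proteins branch (chromosome 3, 89093588 to 89101967, minus strand). Its level was 14.6, 23.4 and 21.0 RPKM in Ctrl and 18.0, 14.7 and 22.8 RPKM in NIC eCA. Ctrl replicate 1 and NIC eCA replicate 2 were low, and the other 4 libraries were higher. The means were 19.7 ± 4.54 and 18.5 ± 4.03 RPKM (SD, n = 3 each), a log2 fold change of -0.08 (95% interval -0.57 to 0.41, limma adjusted p = 0.82). The sign of this value turned without Ctrl replicate 2 (0.05) or NIC eCA replicate 2 (0.07).

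Fdft1, the squalene synthase, commits farnesyl diphosphate to sterols (chromosome 14, 63145150 to 63177793, minus strand). It was the least variable of the 8, at 15.8, 13.2 and 14.3 RPKM in Ctrl and 15.0, 15.1 and 14.2 RPKM in NIC eCA, with the highest library 1.19 times the lowest. Ctrl replicate 1 was here the highest library and Ctrl replicate 2 the lowest. The log2 fold change was 0.03 (95% interval -0.23 to 0.30, limma adjusted p = 0.85). The last 774 exon bases of Fdft1 in GENCODE (63145150 to 63145923), 18.3% of its exon bases, are also exon of Ctsb on the opposite strand, a lysosomal protease gene at 403, 322 and 363 RPKM in Ctrl and 613, 559 and 507 RPKM in NIC eCA. That share is of 4227 exon bases in GENCODE, while the gene model of the Fdft1 row measured 2863 bases. No source used here states whether counting used the strand. Reads of the 2 genes may thus not have been told apart on this stretch, and the level of Fdft1 is uncertain, to an extent that is not known.

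Sqle, the squalene epoxidase that takes the first oxygen-requiring step (chromosome 15, 59315092 to 59331193, plus strand), was at 5.52, 10.5 and 9.63 RPKM in Ctrl and at 7.20, 7.72 and 9.50 RPKM in NIC eCA. Ctrl replicate 1 was the lowest library and Ctrl replicate 2 the highest, with all NIC eCA values between them. The log2 fold change was -0.03 (95% interval -0.55 to 0.49, limma adjusted p = 0.94), and trimmed mean scaling (0.03) and quantile normalization (0.06) turned its sign.

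Lss, the cyclase that folds oxidosqualene into lanosterol (chromosome 10, 76531627 to 76553934, plus strand), had the largest difference among the 8. Its level was 2.65, 4.33 and 3.88 RPKM in Ctrl and 2.82, 2.09 and 2.89 RPKM in NIC eCA, from 229 to 535 reads per library. Ctrl replicates 2 and 3 were above every NIC eCA library, but Ctrl replicate 1 lay below 2 of them. The means were 3.62 ± 0.87 and 2.60 ± 0.442 RPKM (SD, n = 3 each), a log2 fold change of -0.35 (95% interval -0.76 to 0.06, limma adjusted p = 0.20). Without Ctrl replicate 1 the log2 fold change was -0.51 with a limma adjusted p of 0.076, and over all alternative fits the adjusted p ranged from 0.076 to 0.50. Part of its exons, 381 bases, also lies in 4930483K19Rik on the opposite strand, a row at 0.532 RPKM in its lowest library and 1.502 RPKM in its highest.

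Cyp51, the demethylase that acts on lanosterol (chromosome 5, 4080674 to 4104697, minus strand), was at 5.36, 7.08 and 8.36 RPKM in Ctrl and at 5.48, 5.75 and 7.13 RPKM in NIC eCA. Ctrl replicate 1 was again the lowest library and Ctrl replicate 3 the highest. The groups overlapped, with a log2 fold change of -0.15 (95% interval -0.54 to 0.25, limma adjusted p = 0.57). Of its exon bases 166 (3.76%) are also exon of Akap9 on the opposite strand, a row at 7.44, 7.17 and 7.61 RPKM in Ctrl and 4.80, 5.02 and 5.79 RPKM in NIC eCA, lower in every NIC eCA library. Fdps shares 1124 of its 4208 exon bases in GENCODE (26.7%) with Gm43738 on the same strand, while the gene model of its row measured 1461 bases. Hmgcs1 shares 557 with Gm48342 and Idi1 323 with Gm48574, both on the opposite strand. Gm43738, Gm48342 and Gm48574 were not analysed here. What these overlaps had to do with the levels was not tested.

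By their mean over the 6 libraries, per length of gene model, the order of levels was Fdps (19.1 RPKM), Fdft1 (14.6), Hmgcs1 (12.3), Mvd (8.69), Sqle (8.35), Cyp51 (6.52), Idi1 (5.53) and Lss (3.11). In 3 neighbouring pairs the order was not the same in every library. Fdps was above Fdft1 in 4 of 6 libraries, Fdft1 above Hmgcs1 in 5 and Mvd above Sqle in 2. In the other 4 neighbouring pairs the order was the same in 6 of 6 libraries. Fdps stood at the 77.0th percentile of mean level among tested genes and Lss at the 20.4th percentile.

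Levels differed between libraries of the same group, and several enzymes shared these differences. Ctrl replicate 1 was the lowest of the 3 Ctrl libraries for 6 of 8 enzymes, and NIC eCA replicate 3 was the highest NIC eCA library for 6 of 8. Hmgcs1 and Idi1 had a Pearson r of 0.95 over the 6 libraries, Idi1 and Cyp51 0.94, Idi1 and Sqle 0.92, and Fdps and Sqle 0.88. These values describe 6 libraries from 2 groups that share depth and scaling. Over all 28 pairs of enzymes the median r was 0.48, with 7 pairs above 0.8 and 9 pairs below 0. Mvd followed none of the others closely (median r 0.04), and the row of Fdft1 ran opposite to most of them (median r -0.77, and -0.93 with Sqle). That row may hold reads of Ctsb, and its highest library was 1.19 times its lowest, so its r values rest on small differences. What Ctsb had to do with them was not tested.

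The mean of log2(RPKM + 1) over the 8 enzymes was 3.04, 3.40 and 3.45 in the Ctrl libraries and 3.15, 3.10 and 3.39 in the NIC eCA libraries. Outside the 8, the 5 of 12312 genes whose log2(RPKM + 1) was most alike to this mean over the 6 libraries were Cdc16 (Pearson r 0.988), Cenpq (0.988), AI597468 (0.987), Hsd17b7 (0.986) and Zdhhc6 (0.985). Hsd17b7 encodes a sterol ketone reductase of the same pathway, and was at 1.21, 2.09 and 2.03 RPKM in Ctrl and 1.41, 1.23 and 1.96 RPKM in NIC eCA. Cdc16, a subunit of the anaphase-promoting complex, was at 11.9, 14.6 and 14.7 RPKM in Ctrl and 12.2, 12.3 and 14.6 RPKM in NIC eCA. Ctrl replicate 1, where the mean of the enzymes was lowest, held the largest endothelial sum and the smallest proliferation sum of the Ctrl libraries. What these markers had to do with the level of the enzymes was not tested.

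**Figure D2:**
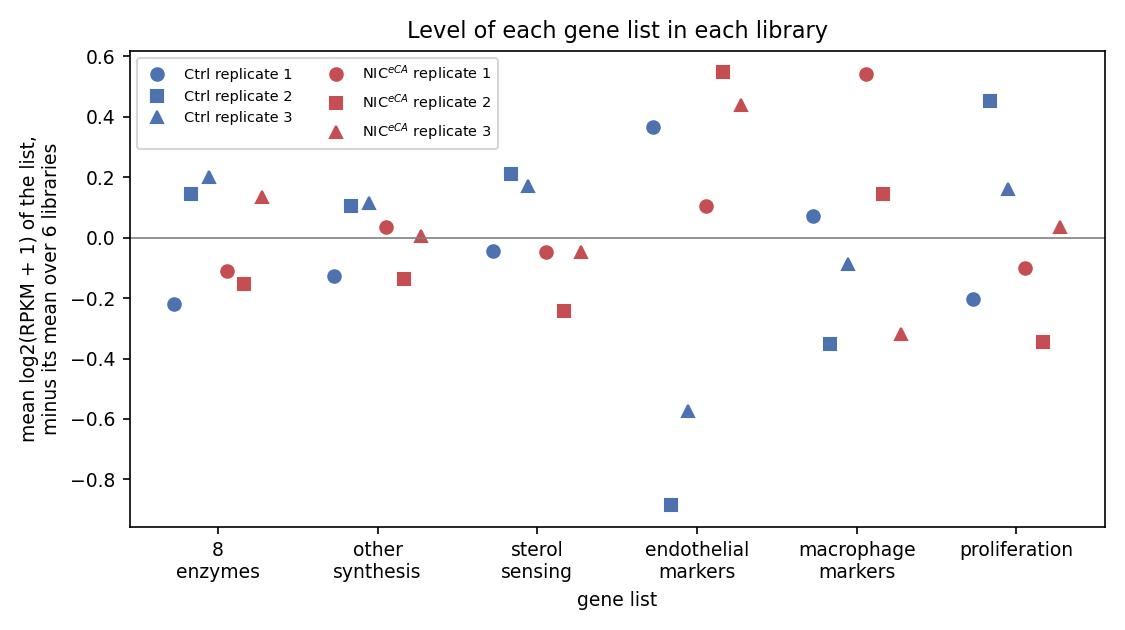
Mean log2(RPKM + 1) of each gene list in each library, minus its mean over the 6 libraries, with Ctrl in blue and NIC eCA in red. For the 8 enzymes Ctrl replicate 1 is lowest (-0.22) and Ctrl replicate 3 highest (0.20), while endothelial markers are lowest in Ctrl replicates 2 (-0.89) and 3 (-0.57).

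Promoter sequences from RefSeq (GRCm38.p6, 300 bases around the annotated start) were found for 5 of the 8 enzymes, Hmgcs1, Mvd, Idi1, Lss and Cyp51. Both strands were searched for the sterol regulatory element cores TCACNCCAC and CACNCCAC (the second lies within the first), for CCAAT and for CACGTG. The letters CCAAT were found in 5 of 5, against 37.4% of 32851 promoters of 300 bases, and in 9 of 10 promoters of other synthesis genes. TCACNCCAC was found in 1 of 5, Hmgcs1, against 1.24% of all promoters, as was CACNCCAC (6.24% of all promoters). CACGTG was found in 0 of 5, against 7.15%. Of the 10 promoters of other synthesis genes, 0 held TCACNCCAC, 1 held CACNCCAC and 3 held CACGTG. Promoters of Hmgcs1, Idi1 and Cyp51, whose levels moved together across libraries, are shown with that of Mvd, which did not follow them. Capitals mark CCAAT or its reverse complement ATTGG and, in Hmgcs1, TCACCCCAC. They lie at chr13:119690101-119690400 (plus strand), chr13:8885356-8885655 (plus), chr5:4104648-4104947 (minus) and chr8:122443373-122443672 (minus). For Hmgcs1 the gene annotation starts at 119690351, within this stretch, while its row in the expression table starts at 119690462, beyond it.
Hmgcs1: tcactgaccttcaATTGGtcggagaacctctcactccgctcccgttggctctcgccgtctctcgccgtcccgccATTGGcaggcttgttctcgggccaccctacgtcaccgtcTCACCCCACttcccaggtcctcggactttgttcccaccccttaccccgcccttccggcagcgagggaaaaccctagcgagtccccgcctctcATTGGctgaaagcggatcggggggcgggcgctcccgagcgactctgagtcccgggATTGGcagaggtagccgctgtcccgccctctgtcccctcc
Idi1: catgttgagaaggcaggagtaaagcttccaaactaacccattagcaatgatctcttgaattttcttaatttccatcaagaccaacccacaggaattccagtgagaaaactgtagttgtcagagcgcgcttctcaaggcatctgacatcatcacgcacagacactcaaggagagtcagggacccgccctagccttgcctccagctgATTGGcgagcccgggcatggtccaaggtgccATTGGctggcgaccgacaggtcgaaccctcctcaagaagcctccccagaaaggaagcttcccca
Cyp51: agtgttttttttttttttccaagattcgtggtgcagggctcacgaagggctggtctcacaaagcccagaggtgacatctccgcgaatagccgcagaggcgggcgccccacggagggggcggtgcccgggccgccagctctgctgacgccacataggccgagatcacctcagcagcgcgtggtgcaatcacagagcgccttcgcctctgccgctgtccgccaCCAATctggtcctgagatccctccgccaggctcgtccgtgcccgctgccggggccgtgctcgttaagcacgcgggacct
Mvd: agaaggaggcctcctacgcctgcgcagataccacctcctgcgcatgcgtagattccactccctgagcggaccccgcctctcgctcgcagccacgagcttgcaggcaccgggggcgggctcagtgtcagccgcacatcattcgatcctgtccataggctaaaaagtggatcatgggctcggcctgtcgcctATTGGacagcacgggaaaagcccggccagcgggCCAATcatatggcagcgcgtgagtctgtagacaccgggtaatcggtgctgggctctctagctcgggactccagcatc

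A match is a description of letters and not of binding. Hmgcs1 held 4 CCAAT matches, Idi1 2, Mvd 2 and Cyp51 1.

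Of the other 12 synthesis genes, 0 were called with limma, 0 had an unadjusted p below 0.05 (1 of 12 with voom, where 0 were called), and the median log2 fold change was -0.06. The values with the lowest p lay late in the pathway and in both directions. Ebp, the sterol isomerase, was at 13.6, 11.5 and 13.3 RPKM in Ctrl and 18.6, 18.5 and 13.3 RPKM in NIC eCA. NIC eCA replicates 1 and 2 were above all Ctrl libraries and replicate 3 was not, with a log2 fold change of 0.36 (95% interval -0.01 to 0.72, limma adjusted p = 0.15). Dhcr7, a sterol reductase of the last steps, was at 2.69, 2.85 and 3.75 RPKM in Ctrl and 2.09, 1.48 and 2.72 RPKM in NIC eCA. Its highest NIC eCA library was just above its lowest Ctrl library, and the log2 fold change was -0.42 (95% interval -0.84 to 0.01, limma adjusted p = 0.15). Msmo1, a sterol oxidase named Sc4mol in the table, had a log2 fold change of 0.23 (95% interval -0.10 to 0.55).

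Among the 7 genes that sense sterols, 0 were called by limma or voom. With limma, 3 of 7 had an unadjusted p below 0.05, against 35.5% of all tested genes. The median log2 fold change was -0.25. This median was -0.11 both with quantile normalization and with the trend on length of the gene models removed. Srebf2, the main transcription factor of the pathway, was at 14.2, 22.9 and 19.96 RPKM in Ctrl and 13.0, 10.6 and 13.8 RPKM in NIC eCA. Every NIC eCA library was below every Ctrl library, though Ctrl replicate 1 was close to them. On the log2 scale the difference was -0.55 (95% interval -0.99 to -0.12, limma adjusted p = 0.082). Without Ctrl replicate 1 it was -0.74 and called (limma adjusted p = 0.043), and the adjusted p ranged from 0.043 to 0.27 over the alternative fits.

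Scap, the escort of Srebf2, was at 14.2, 17.7 and 14.8 RPKM in Ctrl and 11.6, 10.5 and 12.1 RPKM in NIC eCA. Mbtps1, the first protease, was at 19.0, 26.1 and 23.3 RPKM in Ctrl and 16.5, 13.5 and 17.0 RPKM in NIC eCA. For both genes all NIC eCA libraries were below all Ctrl libraries, as for 24.4% of all tested genes. Their log2 fold changes were -0.41 (95% interval -0.71 to -0.11, limma adjusted p = 0.067) for Scap and -0.51 (95% interval -0.87 to -0.15, limma adjusted p = 0.063) for Mbtps1. Insig1, which holds Scap back when sterols are plentiful, was at 21.3, 21.0 and 20.9 RPKM in Ctrl and 26.2, 22.6 and 22.5 RPKM in NIC eCA. All 3 NIC eCA values were higher, and the log2 fold change was 0.16 (95% interval -0.10 to 0.43, limma adjusted p = 0.34). Srebf1, whose products act more on fatty acid genes, had a log2 fold change of -0.09 (95% interval -0.43 to 0.26). Whether the difference of Srebf2 differed from that of the 8 enzymes was not tested.

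Of the 12 uptake genes, 11 were tested and 1 was called, higher in NIC eCA, against 5.88% of all tested genes called higher and 7.68% called lower. The median log2 fold change of the list was 0.01. Vldlr, a lipoprotein receptor, had 4 to 51 reads per library and was not tested.

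The called uptake gene was Npc2, whose product takes cholesterol out of lipoproteins in the lysosome. It was at 113, 89.3 and 104 RPKM in Ctrl and 203, 204 and 147 RPKM in NIC eCA, with every NIC eCA library above every Ctrl library. The log2 fold change was 0.84 (95% interval 0.44 to 1.24, limma adjusted p = 0.030). This call was lost without Ctrl replicate 2 (limma adjusted p = 0.072), NIC eCA replicate 1 (0.12) or NIC eCA replicate 2 (0.13). It was also lost with quantile normalization (0.090, log2 fold change 0.46), with no filter on low values (0.057) and with the replicate number as a block (0.059). The call held in 10 of 16 alternative fits. Next to it stand the neutrophil markers, of which 8 of 9 were called higher, and the macrophage markers, of which 4 of 12 were called higher and 7 of 12 had a log2 fold change below 0. Their part in the difference of Npc2 was not tested. Npc1, its membrane partner, was at 24.0, 14.6 and 22.0 RPKM in Ctrl and 29.2, 23.6 and 23.5 RPKM in NIC eCA. The groups overlapped, and the log2 fold change was 0.34 (95% interval -0.11 to 0.79). Mylip, a ubiquitin ligase that acts on lipoprotein receptors, was at 18.8, 9.32 and 10.7 RPKM in Ctrl and 15.2, 19.6 and 13.3 RPKM in NIC eCA. Its highest and lowest libraries were NIC eCA replicate 2 and Ctrl replicate 2, with a log2 fold change of 0.33 (95% interval -0.26 to 0.92). Lrp1, a large receptor with many ligands, was at 97.6, 92.4 and 137 RPKM in Ctrl and 94.7, 66.0 and 74.0 RPKM in NIC eCA. Its log2 fold change was -0.47 (95% interval -0.92 to -0.01, limma adjusted p = 0.14), and it was called with quantile normalization (-0.83, limma adjusted p = 0.039). Lrp1 has a gene model of 14891 bases, and with the length trend removed almost no difference remained (-0.01, adjusted p = 0.97).

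**Figure D3:**
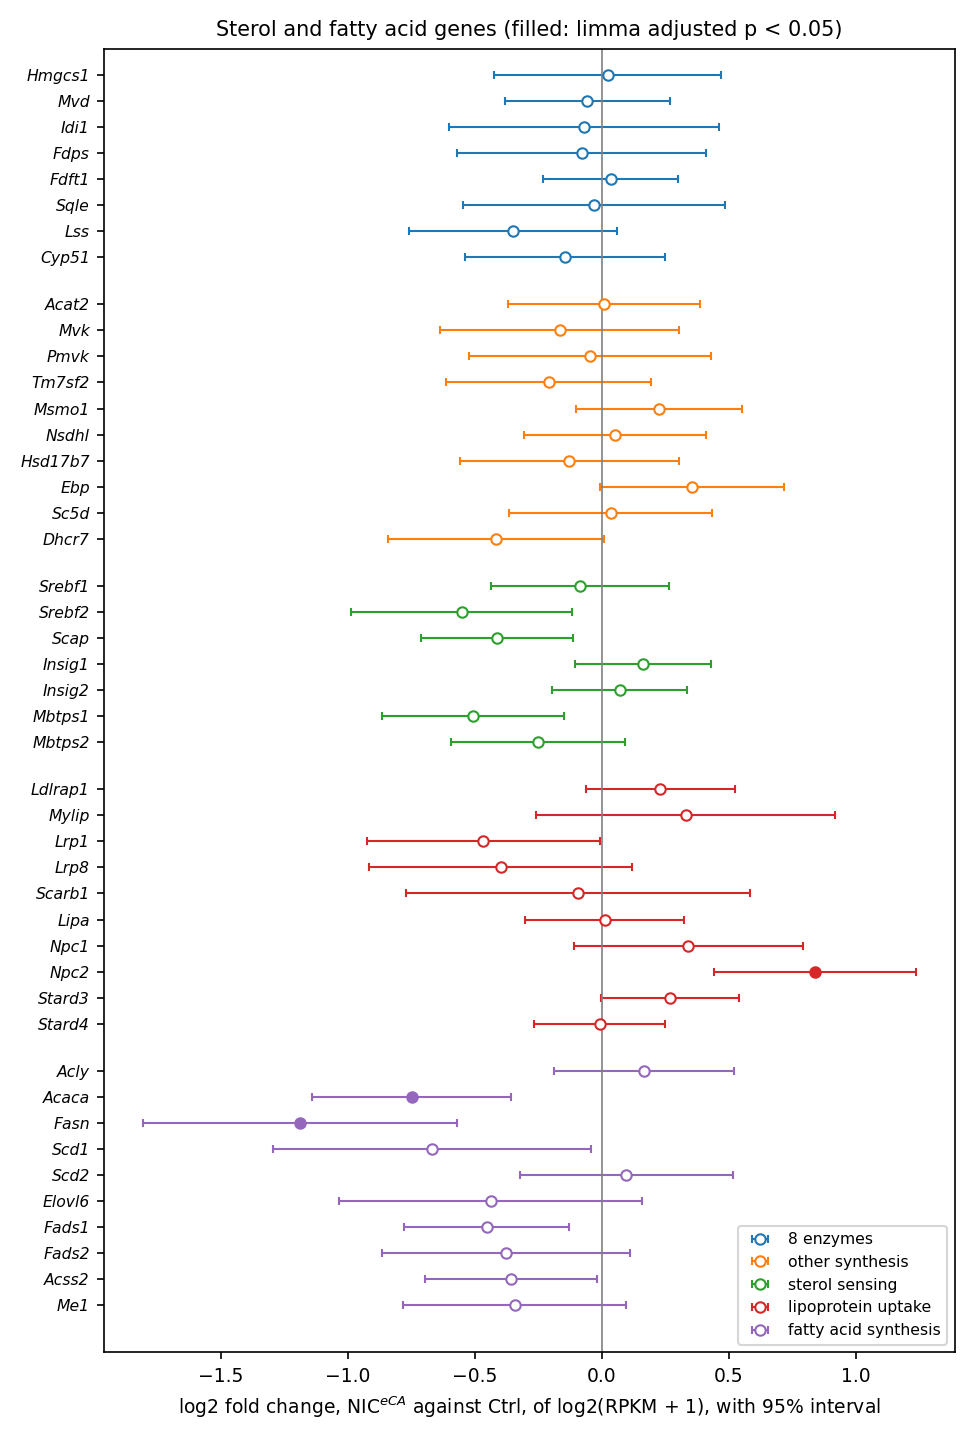
Log2 fold change of NIC eCA against Ctrl on the log2(RPKM + 1) scale with its 95% interval, for genes of 5 lists, filled where limma's adjusted p was below 0.05. All 8 enzymes have intervals that include 0, while Npc2 (0.84), Acaca (-0.75) and Fasn (-1.19) are filled.

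Genes that remove or store cholesterol were not called either (0 of 8 by limma and by voom, median log2 fold change 0.13). With limma, 3 of 8 had an unadjusted p below 0.05, against 35.5% of all tested genes. Abca1, the exporter to lipid-poor apolipoprotein, was at 64.5, 32.4 and 55.7 RPKM in Ctrl and 65.8, 69.2 and 68.7 RPKM in NIC eCA. All NIC eCA values were higher, by a small margin over Ctrl replicate 1, and the log2 fold change was 0.47 (95% interval -0.08 to 1.01), 0.18 without Ctrl replicate 2 and 0.81 with the length trend removed. Abcg1, another exporter, had a log2 fold change of 0.43 (95% interval -0.05 to 0.90). Soat1, which esterifies cholesterol for storage, was at 21.3, 17.9 and 25.7 RPKM in Ctrl and 30.8, 28.6 and 28.7 RPKM in NIC eCA. The log2 fold change was 0.44 (95% interval 0.10 to 0.78, limma adjusted p = 0.079), and it was called with trimmed mean scaling (adjusted p = 0.047) and without Ctrl replicate 3 (0.040), in a range of 0.040 to 0.22 over the alternatives. The other 2 genes with an unadjusted p below 0.05 had lower means in NIC eCA. Cyp27a1, the sterol 27-hydroxylase, was at 10.4, 5.62 and 8.22 RPKM in Ctrl and 5.49, 5.88 and 3.95 RPKM in NIC eCA, with a log2 fold change of -0.55 (95% interval -1.05 to -0.05, limma adjusted p = 0.12). Nr1h3, a nuclear receptor for oxysterols, was at 9.38, 7.92 and 11.8 RPKM in Ctrl and 6.62, 8.501 and 4.58 RPKM in NIC eCA, with a log2 fold change of -0.52 (95% interval -1.02 to -0.02, limma adjusted p = 0.13). In both genes the groups overlapped through a low Ctrl replicate 2. Apoe, a lipoprotein component that macrophages secrete, was at 6896, 3050.1 and 2349 RPKM in Ctrl and 3147, 3227 and 1689 RPKM in NIC eCA. Ctrl replicate 1 stood above the other libraries, and the log2 fold change was -0.51 (95% interval -1.48 to 0.46), and -0.05 without that library.

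On the isoprenoid branches, 7 of 8 genes were tested and 0 were called by limma or voom, with a median log2 fold change of -0.09. With limma, 2 of 7 had an unadjusted p below 0.05, against 35.5% of all tested genes. Pdss2, a subunit of the enzyme that makes the side chain of ubiquinone, was at 2.81, 3.97 and 3.22 RPKM in Ctrl and 1.74, 2.01 and 2.499 RPKM in NIC eCA. Every NIC eCA value was lower, with a log2 fold change of -0.49 (95% interval -0.85 to -0.13, limma adjusted p = 0.070). Fntb, a subunit of protein farnesyltransferase, had a log2 fold change of -0.39 (95% interval -0.71 to -0.07, limma adjusted p = 0.094) and Ggps1, which makes geranylgeranyl diphosphate, 0.14 (95% interval -0.14 to 0.42).

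In fatty acid synthesis, which shares acetyl-CoA and the Srebf factors with sterol synthesis, 2 of 10 genes were called, both lower in NIC eCA, against 7.68% of all tested genes called lower, and 5 of 10 had an unadjusted p below 0.05, against 35.5% of all. The list had a median log2 fold change of -0.41, and of -0.25 with quantile normalization. Its mean log2(RPKM + 1) was 3.03, 3.48 and 3.32 in Ctrl and 2.76, 2.69 and 3.09 in NIC eCA. Next to it stand the fibroblast markers, of which 3 of 7 were called lower. Like the fatty acid list, fibroblast markers and proliferation genes had their highest mean in Ctrl replicate 2 and their lowest in NIC eCA replicate 2. The part of these markers in the differences was not tested. Fasn, the fatty acid synthase, was at 12.4, 23.6 and 15.7 RPKM in Ctrl and 5.91, 5.32 and 9.73 RPKM in NIC eCA. Acaca, the carboxylase that supplies malonyl-CoA to it, was at 5.09, 7.90 and 6.62 RPKM in Ctrl and 3.18, 3.11 and 4.10 RPKM in NIC eCA. For both genes the highest NIC eCA library was below the lowest of Ctrl. Fasn fell by 1.19 on the log2 scale (95% interval -1.80 to -0.57, limma adjusted p = 0.035) and Acaca by 0.75 (95% interval -1.14 to -0.36, limma adjusted p = 0.036). Both calls were lost without Ctrl replicate 2 (adjusted p = 0.072 for Fasn and 0.078 for Acaca), Ctrl replicate 3 (0.051 and 0.056), NIC eCA replicate 1 (0.13 and 0.13) or NIC eCA replicate 2 (0.14 and 0.15). They were also lost with quantile normalization (0.051 and 0.055), with no filter (0.072 and 0.075) and with the replicate number as a block (0.051 and 0.056). Scd1, the desaturase of stearoyl-CoA, had a log2 fold change of -0.67 (95% interval -1.29 to -0.04, limma adjusted p = 0.12) and was called without NIC eCA replicate 3 (0.049, range over the alternatives 0.049 to 0.33). Fads1, the fatty acid desaturase, had -0.45 (95% interval -0.78 to -0.13, limma adjusted p = 0.066), and Acss2, an acetyl-CoA synthetase, -0.36 (95% interval -0.69 to -0.02, limma adjusted p = 0.13).

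The called fatty acid genes have long gene models, 9938 bases for Fasn and 9032 for Acaca, and fold changes followed length over the whole table. The median log2 fold change was 0.16 for 1281 tested genes with models below 1000 bases and -0.28 for 1283 genes with models of 6000 bases or more, of which 22.1% were called lower. With the trend on length removed from each library, Fasn had a log2 fold change of -0.86 (limma adjusted p = 0.075) and Acaca of -0.44 (0.11), and neither was called. The models of the 8 enzymes measured 1461 to 4353 bases, and 0 of 8 were called in that fit too, with a median log2 fold change of -0.04. What the length of gene models had to do with these differences was not tested further.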

How the data were processed

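RNA of CD31 bead fractions was depleted of ribosomal RNA and sequenced as paired reads of 150 bases. The authors deposited 1 table of RPKM values for 56826 rows in 6 libraries, of which 23473 carry RefSeq names. The submitters' processing notes name TopHat2 and mm9, but 99.3% of the 21665 RefSeq rows matched by symbol overlap the gene in GRCm38, so positions are given as GRCm38. Whole reads were recovered from RPKM, length and library total (100% of values below 1000 reads within 0.05 of a whole number).

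The main test was limma (version 3.58.1, R 4.3.3) on log2(RPKM + 1) with a mean-variance trend, two-sided, over RefSeq rows with a mean of at least 1 RPKM, with Benjamini-Hochberg adjustment over all of them and a threshold of 0.05. A fold change is thus on the log2(RPKM + 1) scale, which understates the change of low genes. The fit was tested on simulated data first. There 65 of 100 genes changed 2-fold and 92 of 99 changed 4-fold were called in the right direction, and 7 unchanged genes were called. With no gene changed, 0 of 12335 were called. Every gene was refitted under other scalings, filters, pseudocounts and variance models, with voom on recovered reads, with each library left out and, chosen after seeing the data, with the trend on length of the gene model removed (lowess, span 0.3). Genes named are the 8 enzymes, genes of the pathway lists by role or call, the most abundant marker of each list, and the 5 genes most alike to the mean of the enzymes. The members and lists were chosen with earlier results of these data known. Ly6g, on the neutrophil list, was not analysed here. Some genes of the pathway lists enter counts and medians but are not reported by value here. FANTOM3 rows were left out, since many cover the same exons. Rows of Srebf1 and Npc1 also overlap rows on the opposite strand. Replicates differed by more than sampling noise, with a chi-square per degree of freedom of at least 51.2. Figures were drawn with matplotlib 3.10.9 in Python 3.11.15 (pandas 2.3.3).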

Additional observations from a re-analysis of the deposited data

How the results depend on the processing

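The count of called genes was 0 of 8 enzymes and 0 of 12 other synthesis genes in every alternative fit, with 7 and 8 genes left to test where a mean of 5 RPKM was required. Over all tested genes, 1671 calls became 771 with quantile normalization, 365 with no filter, 668 with the length trend removed (chosen after seeing the data) and 27 to 1661 with 1 library left out. The split into higher and lower calls, 725 and 946, was 446 and 325 with quantile normalization and 1003 and 685 with trimmed mean scaling. With the replicate number as a block, 536 genes were called. The methods mention pairs of mice, and it was not given in the sources used here which libraries form a pair or whether the replicate numbers mark it. Deviations of libraries with the same number correlated at 0.122, -0.34 and -0.18, and not every library correlated best with its own number, and the main fit has no block. The calls of Npc2, Fasn and Acaca were not made in that blocked fit (limma adjusted p = 0.059, 0.051 and 0.056).

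Of 127 log2 fold changes of the 8 enzymes under alternatives, 18 turned sign, and none was called. Signs turned with quantile normalization for Mvd (0.024), Idi1 (0.060), Sqle (0.058) and Hsd17b7 (0.050), with trimmed mean scaling for Mvd (0.00067) and Sqle (0.027), with voom for Sqle (0.0037) and with the length trend removed for Hsd17b7 (0.0012) and Srebf1 (0.029). With 1 library left out, values ran from -0.14 to 0.16 for Hmgcs1, -0.16 to 0.055 for Mvd, -0.30 to 0.083 for Idi1, -0.27 to 0.067 for Fdps, -0.022 to 0.097 for Fdft1, -0.29 to 0.13 for Sqle and -0.21 to 0.034 for Srebf1. The cause was not tested. Among 23 further list genes, 37 of 360 values turned sign and no call changed. With 3 libraries a group, the intervals of the enzymes were 0.858 wide in the median, so differences well inside them could not be detected with this number of samples.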
